A study of Mus musculus with 15 samples.

Results

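The 7 genes that encode subunits of the NMDA-type glutamate receptor in the mouse (Grin1, Grin2a, Grin2b, Grin2c, Grin2d, Grin3a and Grin3b) were followed by RNA-seq in purified precursors of cerebellar granule neurons and in cells of a cerebellar tumour, medulloblastoma. The precursors were taken at 4 ages. The 7 genes were chosen by name from a table of 21889 genes, without use of their measured values, and all 7 passed the filter on low counts that left 15259 genes for testing. Each of the 5 groups had 3 libraries. The cells carried the genotype label Math1-GFP, a reporter named for the granule precursor gene Math1 (Atoh1), at E15.5, and were wild type (WT) at P1, P7 and P14. The tumour cells (MB) had the genotype label Ptch1 heterozygous, that is, 1 mutant copy of the gene for the Sonic hedgehog receptor, and no age. All cells came from cerebellum and were enriched on Percoll gradients, and poly(A) RNA was sequenced. Age and the Math1-GFP label change together between E15.5 and P1 and cannot be told apart. The labels do not say whether the libraries of a group came from separate animals, so the p-values measure the spread between these libraries, which may be partly technical.

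NMDA receptors are tetrameric calcium-permeable ion channels that open when glutamate and a co-agonist, glycine or D-serine, are both bound and depolarization removes magnesium from the pore. Every receptor contains the obligatory GluN1 subunit, encoded by Grin1, together with GluN2 subunits that bind glutamate (GluN2A to GluN2D, from Grin2a to Grin2d) or GluN3 subunits that bind glycine (from Grin3a and Grin3b). In textbook accounts of the cerebellum, immature granule cells express mainly Grin2b, and Grin2a and then Grin2c are turned on as the cells mature and receive mossy fibre synapses.

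The gene structures bear on what was counted. In mm9, the genome build that the submitters name, Grin1 lies at chr2:25146701-25174707, Grin2a at chr16:9577803-9995014, Grin2b at chr6:135679844-136123529, Grin2c at chr11:115110483-115128557, Grin2d at chr7:53087253-53122499 and Grin3a at chr4:49674483-49858421, all on the minus strand. Grin3b lies at chr10:79433460-79439935 on the plus strand. The exons of the deposited gene models cover between 3296 bases (Grin3b) and 7484 bases (Grin2b), so levels are compared between genes only per kilobase of exon. The Grin1 models differ at their 3′ end, where a splice site inside the last exon gives GluN1 either of 2 C-terminal ends, known as C2 and C2′. The coding part of the last exon is shown for the transcript with the longer last exon (ENSMUST00000114310) and the one with the shorter last exon (ENSMUST00000114318), from the GENCODE M21 transcripts of GRCm38, with the stop codon in capitals, because reads that separate these ends are described below.
Longer last exon, 117 coding bases: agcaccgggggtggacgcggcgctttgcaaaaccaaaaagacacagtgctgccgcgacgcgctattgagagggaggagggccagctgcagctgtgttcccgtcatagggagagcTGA
Shorter last exon, 69 coding bases: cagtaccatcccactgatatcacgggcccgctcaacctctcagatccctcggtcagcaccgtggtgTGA
The shorter form begins 356 bases further into the exon (chr2:25147649-25148004 in mm9 is read in the longer form only).

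The promoters of Grin1 and Grin2c are shown because Grin1 had the highest level per kilobase of the 7 genes at each of the 4 ages and Grin2c the widest range over age. RefSeq promoter sequences (GRCm38.p6, windows of 300 bases that include the start) were matched for 4 of the 7 genes. Matches to the GC box GGGCGG, the core of Sp1-family sites, are in capitals.
Grin1 promoter, chr2:25319138-25319437, minus strand: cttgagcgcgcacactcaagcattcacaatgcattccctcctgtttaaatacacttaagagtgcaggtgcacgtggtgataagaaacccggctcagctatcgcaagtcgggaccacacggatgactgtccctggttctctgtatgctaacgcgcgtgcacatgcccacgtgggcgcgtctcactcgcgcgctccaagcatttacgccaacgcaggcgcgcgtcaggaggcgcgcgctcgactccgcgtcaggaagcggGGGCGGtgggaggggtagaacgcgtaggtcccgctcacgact
Grin2c promoter, chr11:115267194-115267493, minus strand: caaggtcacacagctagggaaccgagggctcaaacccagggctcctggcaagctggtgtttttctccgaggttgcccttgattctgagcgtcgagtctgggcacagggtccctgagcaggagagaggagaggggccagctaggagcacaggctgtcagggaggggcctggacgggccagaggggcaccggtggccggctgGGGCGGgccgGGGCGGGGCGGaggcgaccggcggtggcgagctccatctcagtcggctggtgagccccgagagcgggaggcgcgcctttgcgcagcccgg
Searching both strands, the Grin1 window held 1 GC box and the Grin2c window held 3, of which the last 2 share a base. Of 32851 promoter windows of this length, 35.66% held at least 1. The Grin2d and Grin3b windows held none. The GC content was 60.67% for Grin1 and 70.0% for Grin2c, against a median of 52.67% over all windows. A match describes letters only.

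Counts in genes ranged from 12597472 to 43443132 per library. The precursor marker Atoh1 was present in every library, at 123.6 to 138.5 CPM (counts relative to the TMM-scaled library size) at E15.5, 10.91 to 13.1 at P14 and 235.8 to 321.8 in MB. Markers of other cells moved with age. The summed level of 8 astroglial markers was 290.5 to 309.6 CPM at E15.5, 2122 to 3802 at P1 and 1969 to 3974 at P7. It was 3502 to 4727 at P14 and 1593 to 2073 in MB. That of 8 oligodendrocyte markers was 70.72 to 104.9 at E15.5, 595.3 to 3538 at P1 and 893.8 to 1725 at P7. It was 5382 to 5846 at P14 and 657.0 to 964.7 in MB. Summed choroid plexus markers were 97.24 to 378.8 CPM at E15.5 and 407.2, 10510 and 3988 in P1 replicates 1, 2 and 3. They were 52.43 to 2031 at P7, 5191 to 8584 at P14 and 54.88 to 279.1 in MB. The value of P1 replicate 2 was the highest of all libraries. Summed markers of endothelium and mural cells were 23.13 to 57.12 at E15.5, 536.7 to 961.7 at P1 and 439.6 to 634.4 at P7. They were 1230 to 1346 at P14 and 31.85 to 42.39 in MB. The library labelled P1 replicate 3 stood apart from the other 2 P1 libraries and lay near P14 in several markers. Its Gabra6, a marker of mature granule neurons, was 101.7 CPM, against 1.116 and 12.52 in the other P1 libraries and 160.6 to 201.7 at P14. Results that rest on it are given with and without it.

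The number of subunit genes called for a difference with age depended on the libraries used. In edgeR's quasi-likelihood test for any difference among the 4 ages, 5 of the 7 genes were called at a Benjamini-Hochberg adjusted p (FDR) under 0.05, namely Grin1, Grin2a, Grin2c, Grin2d and Grin3a, against 55.7% of all genes tested. The FDR was lowest for Grin3a (0.00895) and highest among the called genes for Grin2a (0.0404). Grin2b missed the threshold (FDR 0.0619), as did Grin3b (0.263). Leaving out single libraries cost each called gene except Grin3a its call in at least 3 cases: without P14 replicate 1, only 2 of the 7 genes were called. Over all genes that fit called 7430, where the joint fit called 8499. Grin2b gained a call without E15.5 replicate 2, P1 replicate 3 or P7 replicate 2, and when low counts were not filtered. Without P1 replicate 3, Grin1, Grin2a, Grin2b, Grin2c and Grin3a were called and Grin2d was not.

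**Figure D1:**
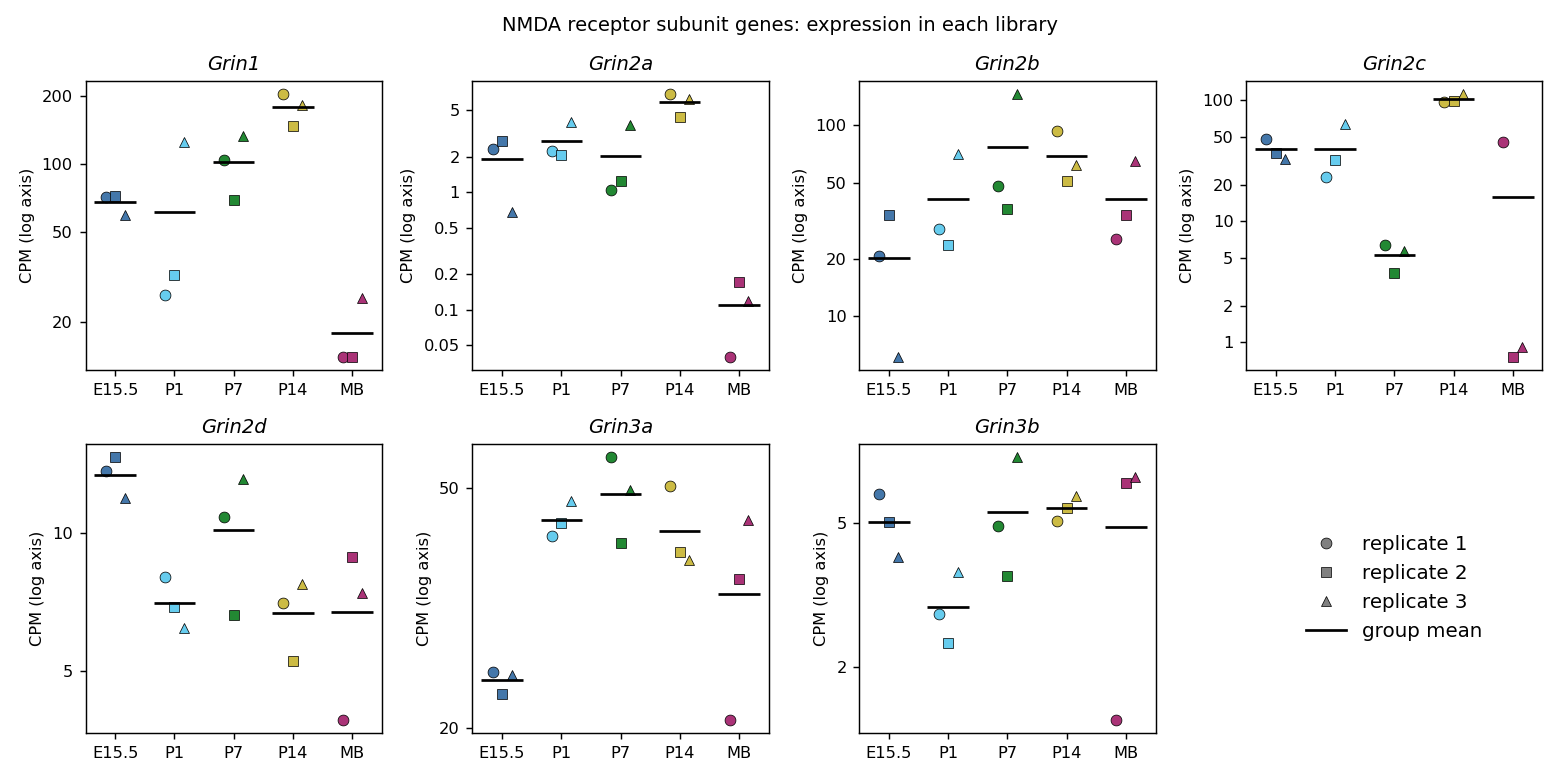
Expression of the 7 subunit genes in each library, as CPM on log axes that differ between panels. Each point is 1 library, its shape gives the replicate number and the black line is the mean of the group. Grin1 and Grin2a are lowest in the 3 MB libraries, Grin2c is low in the 3 P7 libraries, and MB replicate 1 lies far above the other MB libraries for Grin2c.

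Grin1, the obligatory subunit gene, had the highest level per kilobase of the 7 genes at every age. Its libraries gave 71.8, 72.2 and 59.6 CPM at E15.5, 26.5, 32.2 and 125 at P1, 105, 69.2 and 133 at P7, and 204, 148 and 183 at P14. The P14 libraries all lay above those of the 3 earlier ages, and the high P1 value is that of replicate 3. Grin1 was higher at P14 than at E15.5 by 1.39 on the log2 scale (SE 0.46, edgeR FDR 0.0197) and higher than at P1 by 1.54 (SE 0.46, FDR 0.0496). The call against E15.5 was lost without E15.5 replicate 3 (1.24) or without P14 replicate 1 (1.29). The call against P1 held only without P1 replicate 3 among the 6 fits that left out a library of these ages, and the others gave 1.18 to 1.66. The P1 values turn on 1 library. Without P1 replicate 3, Grin1 was lower at P1 than at E15.5 by 1.21 (FDR 0.00666) and P7 exceeded P1 by 1.80 (FDR 0.00685), where with it the differences were -0.15 (FDR 0.813) and 0.74 (FDR 0.389). P14 then exceeded P1 by 2.60 (FDR 1.88e-04). In bulk libraries, a difference in the share of cells that express a gene and a difference in RNA per cell cannot be told apart.

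Grin2b encodes GluN2B, the GluN2 subunit most associated with immature neurons. Its libraries gave 20.6, 33.9 and 6.12 CPM at E15.5, 28.6, 23.5 and 70.7 at P1, 48.0, 36.3 and 145 at P7, and 93.7, 50.9 and 61.6 at P14. The libraries within an age differed by up to 5.54-fold, and the E15.5 range lay below those of P7 and P14 only. Grin2b was higher at P14 than at E15.5 by 1.78 (SE 0.63, edgeR FDR 0.0278). Leaving out E15.5 replicate 1, E15.5 replicate 3 or P14 replicate 1 ended that call, with differences of 1.80, 1.27 and 1.49. None of the other tested comparisons between ages was called for Grin2b. P7 replicate 3, the highest Grin2b library, also had the highest sum of GABAergic interneuron markers among the postnatal libraries (727.1 CPM, against 278.7 to 521.7 in the others). Lhx1 alone gave 338.1 CPM of this sum. Compared with P7 replicate 1, Pax2 (108.9 against 39.48 CPM) and Lhx5 (84.82 against 42.96) were higher. Gad1 (79.66 against 96.53) and Pvalb (11.86 against 38.29) were lower. The part of these cells in the Grin2b value was not tested.

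Grin2c, whose GluN2C product marks mature granule cells in textbook accounts, showed the widest range over age. It was already present at E15.5, at 47.9, 36.9 and 32.7 CPM, and stood at 23.3, 32.3 and 63.2 at P1. At P7 it was 6.40, 3.75 and 5.66, and at P14 it was 96.4, 98.7 and 112. The P7 libraries lay below every library of the other ages, and the P14 libraries above. The rise from P7 to P14 was 4.28 on the log2 scale (SE 1.09, edgeR FDR 0.0252), in a comparison that called 10.3% of genes (5.81% higher and 4.51% lower). It was the only member called there. The difference stayed between 4.08 and 4.42 when any of the 6 libraries was left out, but the FDR then ran from 0.0599 to 0.118. Over all genes, calls in these fits fell as well, from 1574 in the joint fit to between 125 and 1077. P7 against P1 gave -2.91 (SE 1.03, FDR 0.131), and none of the 7 genes was called in that comparison, against 3.15% of genes (1.40% higher and 1.74% lower). At an unadjusted p under 0.05, Grin2c alone passed (0.0125), and DESeq2 called none of the 7 either. Summed markers of oligodendrocytes, choroid plexus and vascular cells were higher at P14 than at P7 without overlap. So were those of maturing granule neurons, while those of astroglia overlapped. Of the 8 markers of maturing granule neurons, 3 were called higher at P14 than at P7 and none lower (median 0.19). Gabra6 was 0.0 CPM in each E15.5 library, 2.542 to 10.26 at P7 and 160.6 to 201.7 at P14. Neurod1 was 1146 to 1868 at P7 and 1107 to 1189 at P14, and Kcnj6 99.81 to 186.7 and 77.55 to 121.7. The part of any of these cells in the Grin2c rise from P7 to P14 was not tested.

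The spread of Grin2c in the fit is shared with the MB libraries, which differed by 60.1-fold. When only the libraries of the groups compared were fitted, the difference from P7 to P14 was 4.28 (FDR 5.25e-05), that from P1 to P7 was -2.90 (FDR 0.0377), and P14 exceeded E15.5 by 1.42 (FDR 3.56e-04), where the joint fit gave 1.39 (FDR 0.245). All 3 P7 libraries belong to a set of 6 (with E15.5 replicates 1 and 3 and MB replicate 1) in which some genes were counted differently. For Tsnax, the gene with which the set was recognized in an earlier analysis of these data, the gene count was 0% to 0.273% of the transcript count in these 6 and 92.4% to 94.8% in the other 9. Within the set of 6, Grin2c was 47.9 and 32.7 CPM at E15.5 and 45.5 in MB replicate 1, against 3.75 to 6.40 at P7. With a term for the set, which rests on the E15.5 and MB libraries since only these groups have both kinds, P14 exceeded P7 by 6.99 (FDR 0.0248) and P7 was below P1 by -5.62 (FDR 0.0446). The MB libraries differ widely in Grin2c, and the size of these values moves with them. For Grin2c itself the gene count was 91.9% to 100.7% of the transcript count over all 15 libraries, and the transcript table gave 4.25 for P14 against P7 (FDR 0.0266).

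Grin2a encodes GluN2A, the subunit that joins receptors at maturing synapses. It had the lowest mean per kilobase of the 7 genes at each age. Its libraries gave 2.36, 2.76 and 0.683 CPM at E15.5, 2.23, 2.09 and 3.96 at P1, 1.05, 1.24 and 3.77 at P7, and 6.84, 4.34 and 6.28 at P14. Only the P14 libraries lay above all libraries of each earlier age. P14 exceeded E15.5 by 1.64 (SE 0.55, edgeR FDR 0.0221) and P7 by 1.54 (SE 0.54, FDR 0.0794), and the latter difference was not called. The call against E15.5 was lost without E15.5 replicate 3 (1.12), P14 replicate 1 (1.499) or P14 replicate 3 (1.57). Grin1, Grin2a and Grin2b all lost their call between E15.5 and P14 with the set term (1.18, 0.97 and 1.15) and within the other 9 libraries (1.28, 1.06 and 0.999), where E15.5 has 1 library. In the test among the 4 ages, the set term ended the call of Grin2a (FDR 0.218) and added one for Grin2b (FDR 0.0227). The counts behind these values were 26 to 203 reads per precursor library. The gene count was 47.37% to 65.05% of the transcript count in these libraries, so that the table chosen sets the level of Grin2a, and the transcript table lost the call among the 4 ages (FDR 0.0857).

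Grin2d encodes GluN2D, known for slow channels in the embryonic brain and in some interneurons. It ran the other way. Its libraries gave 13.6, 14.6 and 11.9 CPM at E15.5, 8.02, 6.90 and 6.22 at P1, 10.8, 6.62 and 13.1 at P7, and 7.05, 5.27 and 7.76 at P14. The E15.5 libraries lay above all P1 and P14 libraries and overlapped those of P7. Grin2d was lower at P1 than at E15.5 by -0.92 (SE 0.31, edgeR FDR 0.024), and lower at P14 than at E15.5 by -0.998 (SE 0.31, FDR 0.0143). The call at P1 was lost without E15.5 replicate 1 (-0.91), E15.5 replicate 2 (-0.86), P1 replicate 2 (-0.91) or P1 replicate 3 (-0.84), and that at P14 without P14 replicate 2 (-0.85). Summed markers of GABAergic interneurons moved with Grin2d, at 805.4 to 975.2 CPM at E15.5, 386.1 to 489.2 at P1 and 278.7 to 381.5 at P14, and their part in the result was not tested. Of these markers Lhx1 went the other way, at 85.27 to 101.6 CPM at E15.5 and 163.1 to 226.0 at P14.

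The glycine-binding subunit genes differed in their course. Grin3a gave 24.8, 22.8 and 24.5 CPM at E15.5, 41.7, 43.8 and 47.6 at P1, 56.4, 40.6 and 49.6 at P7, and 50.5, 39.2 and 38.0 at P14. The E15.5 libraries lay below all postnatal libraries, while the 3 postnatal ages overlapped. Grin3a rose from E15.5 to P1 by 0.89 (SE 0.23, edgeR FDR 0.00647). P14 exceeded E15.5 by 0.82 (SE 0.23, FDR 0.00862). Both calls held in each alternative except the set term, with differences of 0.83 to 0.96 and 0.68 to 0.90. With the set term the differences were 0.58 (FDR 0.124) and 0.52 (FDR 0.162) and were not called. Together with Grin2d it made 2 of 7 members called between E15.5 and P1, where 46.3% of genes were called, 25.4% higher and 20.9% lower. In that step all 8 markers each of astroglia (median 4.67), oligodendrocytes (3.56) and endothelium and mural cells (4.33) were called higher. So were 7 of 8 of microglia and macrophages (2.64). Of GABAergic interneuron markers, 7 of 8 were called lower (-1.28). The part of these cells in the Grin3a result was not tested.

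Grin3b gave 5.98, 5.01 and 4.02 CPM at E15.5, 2.79, 2.33 and 3.65 at P1, 4.88, 3.56 and 7.59 at P7, and 5.06, 5.49 and 5.92 at P14. Its P1 libraries lay below those of E15.5 and P14, and it was called in no comparison of the joint fit. Against P1 it was called higher at P14 when only these groups were fitted (0.899, FDR 0.0281) and within the 9 libraries (0.89, FDR 0.018), and with the set term it was called lower at P1 than at E15.5 (-1.57, FDR 0.0317). The 3′ end of Grin3b overlaps Tmem259 on the opposite strand by 73 bases, and the library kit does not mark strand. The gene count was 95.03% to 95.24% of the transcript count at E15.5 and 56.5% to 60.6% at P1, so the Grin3b gene counts of these ages are not on 1 footing. In the transcript table P1 differed from E15.5 by -0.53.

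Across the whole span, 5 of 7 members were called between E15.5 and P14, against 50.9% of genes (26.7% higher and 24.2% lower). Grin1, Grin2a, Grin2b and Grin3a were higher at P14 and Grin2d was lower. Between P1 and P14, Grin1 alone was called, against 8.94% of genes (3.63% higher and 5.31% lower). When only these 2 ages were fitted, Grin2a (1.06), Grin2c (1.36) and Grin3b were called there and Grin1 was not (1.53, FDR 0.0739). Over all genes that fit called 4089, where the joint fit called 1364. The plot of fold changes sets these beside the tumour comparisons.

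**Figure D2:**
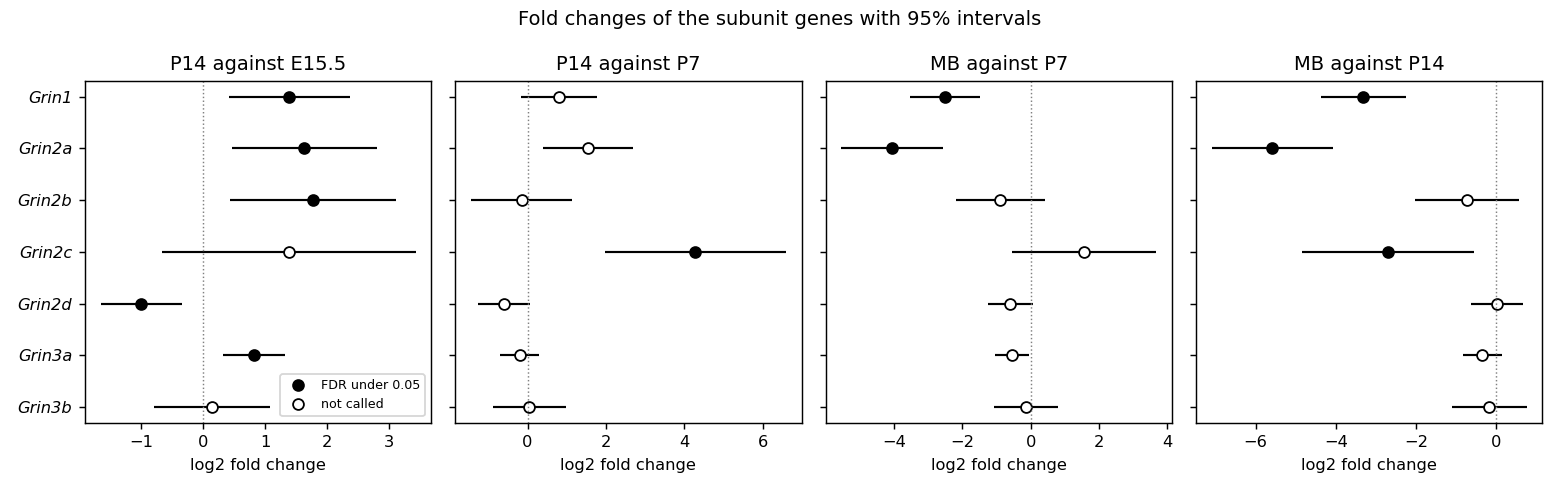
Log2 fold changes of the 7 genes in 4 comparisons, with 95% intervals from the edgeR fit. Filled circles mark an FDR under 0.05. In both tumour comparisons Grin1 and Grin2a lie left of 0 with intervals that leave it out, and Grin2c has the widest intervals.

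The 4 GluN2 genes were then compared with each other within each library, per kilobase of exon, which needs no scaling between libraries. Grin2c held 48.5% to 67.3% of the GluN2 counts per kilobase at E15.5, 44.6% to 56.9% at P1, 4.74% to 12.9% at P7 and 55.7% to 69.3% at P14. Grin2b held 64.8% to 81.8% at P7, against 8.47% to 30.0% at E15.5, 27.9% to 39.4% at P1 and 24.1% to 36.4% at P14. The Grin2d share was 16.4% to 22.7% at E15.5 and 3.44% to 4.30% at P14. The Grin2a share stayed between 1.47% and 4.45% in all 12 precursor libraries. P7 was therefore the only age at which Grin2b made up most of the GluN2 counts.

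**Figure D3:**
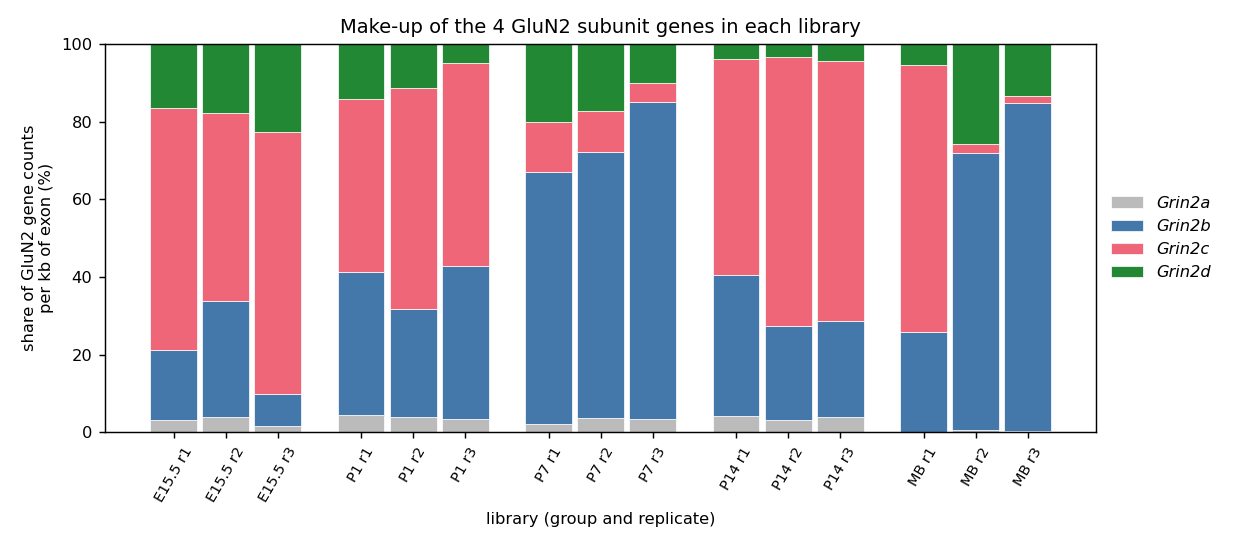
Share of the 4 GluN2 subunit genes in their summed counts per kilobase of exon, in each of the 15 libraries (r is the replicate number). Grin2b takes the largest share in the 3 P7 libraries and in MB replicates 2 and 3, and Grin2c in the E15.5, P1 and P14 libraries and in MB replicate 1.

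Log2 ratios to Grin2b were tested with exact permutation tests over samples, with p-values adjusted over the 9 ratio tests made. The Grin2c to Grin2b ratio averaged 1.82 ± 1.15 (SD, n = 3) at E15.5, 0.57 ± 0.40 at P1, -3.04 ± 0.94 at P7 and 1.19 ± 0.50 at P14, and the ages differed (exact permutation p = 0.003636, adjusted p = 0.01899). Values at P7 lay below all others. The Grin2a to Grin2b ratio averaged -2.65 ± 0.27 at E15.5, -3.13 ± 0.35 at P1, -4.57 ± 0.32 at P7 and -2.90 ± 0.24 at P14 (exact permutation p = 0.004221, adjusted p = 0.01899), and P7 was again lowest without overlap. For Grin2d to Grin2b the means were 0.18 ± 1.12, -1.90 ± 0.99, -2.23 ± 0.70 and -2.87 ± 0.38 from E15.5 to P14 (exact permutation p = 0.007273, adjusted p = 0.02182). E15.5 was highest without overlap. The last test lost its call when any 1 of 5 libraries was left out, 1 of them E15.5 replicate 3, without which the span of the means fell to 2.42.

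**Figure D4:**
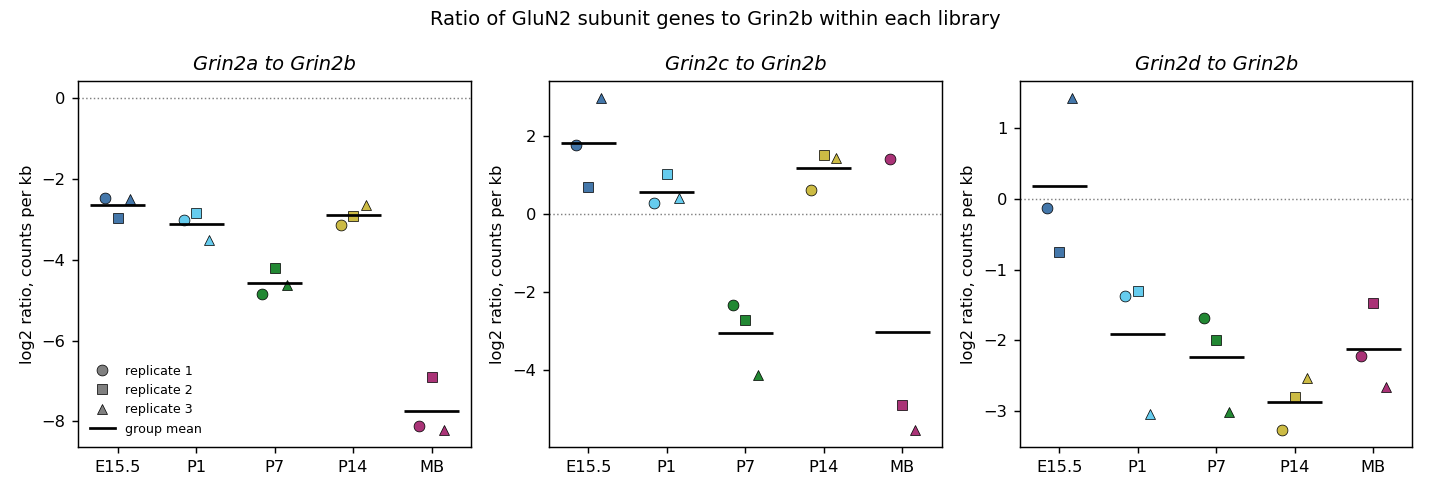
Log2 ratio of Grin2a, Grin2c and Grin2d to Grin2b in each library, from counts per kilobase of exon. Points are libraries and lines are group means. The P7 libraries are the lowest of the 12 precursor libraries in the first 2 panels, and the MB libraries are lowest of all 15 for Grin2a.

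In tumour cells, Grin1 and Grin2a were lower than in P7 precursors, the age with which the study compared its tumours. Grin1 stood at 14.04, 14.12 and 25.66 CPM in MB, below each of the 12 precursor libraries. The difference was -2.51 from P7 (SE 0.48, edgeR FDR 7.83e-04) and -3.31 from P14 (SE 0.49, FDR 6.05e-05). Grin2a had 1, 7 and 3 reads in the MB libraries, that is 0.0397, 0.171 and 0.120 CPM, and these were also below every precursor library. It was lower by -4.05 than at P7 (SE 0.70, FDR 3.54e-04) and by -5.58 than at P14 (SE 0.71, FDR 1.41e-05). All 4 calls held in every alternative tried, with differences from P7 of -2.86 to -2.28 for Grin1 and -4.87 to -3.25 for Grin2a. In the joint fit these were the only members called against P7, where 34.5% of genes were called, 13.7% higher and 20.7% lower. Summed markers of maturing granule neurons moved the same way, at 1180 to 1697 CPM in MB against 3863 to 4046 at P7. Other neuron markers were lower too. In MB against P7, 5 of 8 markers of maturing granule neurons (median -1.34), 7 of 8 of GABAergic interneurons (median -5.97) and 7 of 8 of Purkinje cells (median -3.54) were called lower. The interneuron sum was 323.4 to 377.3 CPM in MB against 461.7 to 727.1 at P7, and the Purkinje sum 74.85 to 130.9 against 377.3 to 1022. Lhx1 alone gave 318.1 to 372.1 CPM of the interneuron sum in MB. It was the interneuron marker not called lower, at 204.0 to 338.1 CPM at P7, so the sum understates the fall of the other markers. The part of these cells in the Grin1 and Grin2a results was not tested.

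Grin2c in MB rested on 1 library. MB replicate 1 held 1147 reads (45.5 CPM), while replicates 2 and 3 held 31 and 23 reads (0.757 and 0.921 CPM). Replicate 1 lay in the range of E15.5 and P1, and the other 2 lay below every precursor library. With all 3 libraries Grin2c was not called against P7 (1.57, SE 0.99, edgeR FDR 0.246) and was called lower than at P14 (-2.71, SE 1.01, FDR 0.0356), with 3 members called there against 50.0% of genes (22.9% higher and 27.2% lower). Without MB replicate 1, Grin2c was lower than at P7 by -2.66 (FDR 2.30e-04) and lower than at P14 by -6.94 (FDR 1.78e-07). Without MB replicate 2 or 3 the P14 difference was -2.14 or -2.16, and without any 1 P14 library it was -2.75 to -2.64, and in none of these 5 fits was it called. Nor was it called when only MB and P14 were fitted (-2.68, FDR 0.147). MB replicate 1 was the only MB library in the set of 6 counted differently. It also had the lowest Grin2d, Grin3a and Grin3b values of the MB group, the most reads with several alignments of all libraries (44.6%), and a sum of microglial markers of 452.6 CPM against 194.4 and 168.6. Whether these have a part in its Grin2c value was not tested.

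The remaining members were not called in MB in the joint fit. Grin2b gave 25.3, 34.0 and 64.7 CPM, which overlapped P7 and P14, and the difference from P7 was -0.89 (95% interval -2.19 to 0.41, edgeR FDR 0.29). Grin2d gave 3.93, 8.87 and 7.41 CPM, with a difference from P7 of -0.59 (-1.24 to 0.07). Grin3a gave 20.6, 35.3 and 44.3 CPM, with a difference of -0.55 (-1.04 to -0.05, FDR 0.0819). It was called lower than at P7 without MB replicate 3 (-0.80, FDR 0.0189). With the set term, Grin3a (-0.87, FDR 0.0315) and Grin2d (-1.06, FDR 0.0378) were called lower than at P7. Grin3b gave 1.43, 6.42 and 6.68 CPM, with a difference of -0.13 (-1.06 to 0.80). All 4 intervals reach below -1.

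The sum of the GluN2 genes, in which Grin2b or Grin2c led, was higher relative to Grin1 in MB than at any age. The summed GluN2 level per kilobase was 1.74 to 4.09 times that of Grin1 in MB, against 0.708 to 0.929 at E15.5, 0.837 to 1.71 at P1, 0.412 to 0.780 at P7 and 0.736 to 0.836 at P14. The MB values lay above those of every age without overlap, and the difference was not tested. The Grin2a to Grin2b ratio was -7.74 ± 0.73 in MB (SD, n = 3), lower than at P7 by -3.17 and lower than at P14 by -4.84 (exact permutation p = 0.1 for each, the smallest that 3 against 3 libraries allow, adjusted p = 0.18). The Grin2c to Grin2b ratio in MB was 1.42, -4.90 and -5.53 and had no common level.

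Order by level differed between genes. For Grin1 and Grin2a, neighbouring groups in the order of means did not overlap at both ends: MB lay apart below and P14 apart above, while E15.5, P1 and P7 overlapped each other. For Grin2c only P14 lay apart from its neighbour, above P1. For Grin2b, Grin2d, Grin3a and Grin3b every pair of neighbouring groups overlapped. Per kilobase, the P14 means ran from Grin1 (40.8 ± 6.52 CPM per kilobase, SD, n = 3) through Grin2c (20.3 ± 1.68), Grin2b (9.18 ± 2.97), Grin3a (5.73 ± 0.93), Grin3b (1.66 ± 0.13), Grin2d (1.23 ± 0.24) and Grin2a (1.21 ± 0.27), the last 2 being within their spread. At P7, Grin1 (23.4 ± 7.30) was followed by Grin2b (10.2 ± 7.998) and Grin3a (6.58 ± 1.07), with Grin2c at 1.05 ± 0.27. In MB, Grin2b (5.52 ± 2.76), Grin3a (4.496 ± 1.61) and Grin1 (4.11 ± 1.53) lay within each other's spread.

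The transcript table separates some Grin1 and Grin2c forms. Reads counted for the Grin1 transcript with the longer last exon and not for that with the shorter one lie only in the 356 bases. Reads that also reach bases shared by both drop out, so the share is not the use of the longer form. These reads made up 2.08%, 2.26% and 1.95% of the reads of the transcript at E15.5, 4.81%, 5.30% and 5.07% at P1, 3.56%, 1.67% and 3.50% at P7, 4.63%, 5.42% and 5.54% at P14, and 0.554%, 8.90% and 5.89% in MB. E15.5 lay below P1 and P14 without overlap, P7 replicate 2 below all E15.5 libraries, and MB spanned the whole range. These shares were chosen after their values were seen and were not tested, and they depend on read length, which is not given in the sources used here. They moved with another feature of the libraries. The Grin3b gene count was at least 92.3% of its transcript count in the 5 libraries with the lowest shares (the E15.5 libraries, P7 replicate 2 and MB replicate 1), 77.3% and 79.9% in the other P7 libraries, and at most 61.7% in the remaining 8. The part of library preparation or read length in these shares was not tested.

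Reads placed only in the 111-base Grin1 cassette exon made up 0.562% to 1.81% of transcript reads, with ranges that overlapped between all groups. Reads that also reach a neighbouring exon are not in this share, so it is not the use of the exon. For Grin2c, the net share of reads placed only in the exons of the upstream start was 2.34% to 3.24% at E15.5, 5.20% to 9.83% at P1, 4.05% to 10.96% at P7 and 6.24% to 7.09% at P14. The RefSeq promoter printed for Grin2c is that of this upstream start. In MB it was 3.48% in replicate 1, while replicates 2 and 3 had 1 and 2 such reads. The share at E15.5 lay below that of P1 and P14 without overlap, as it did for the Grin1 segment.

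**Figure D5:**
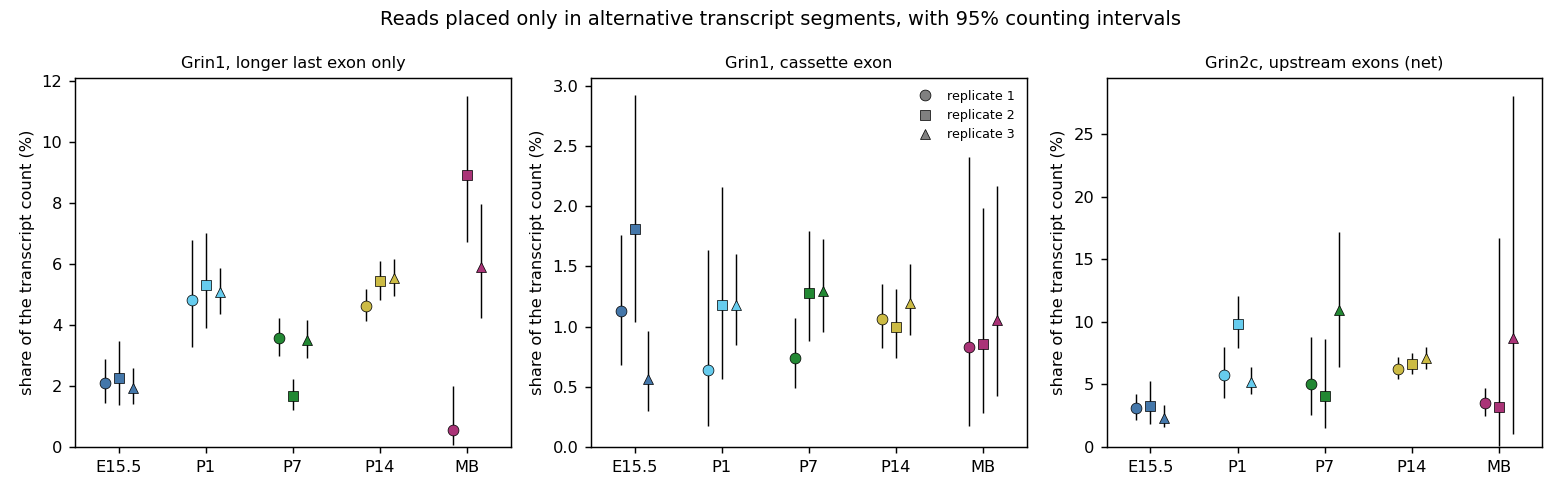
Share of transcript reads placed only in 3 alternative segments (net for Grin2c), in each library, with exact 95% binomial intervals that cover counting error only. The Grin1 last-exon segment lies at 1.95% to 2.26% at E15.5 and at 4.63% to 5.54% at P14, the cassette exon overlaps in all groups, and the Grin2c intervals in MB replicates 2 and 3 are wide because few reads were counted.

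Genes that act with the receptor were counted from 6 lists of 69 genes in all, of which 68 were tested. Among the 4 ages 43 (63.2%) were called, against 55.7% of all genes. Between E15.5 and P14, 28 were higher and 9 lower, 54.4% in all, beside 50.9% of all genes (26.7% higher and 24.2% lower). Against P7, 29 were lower in MB and 2 higher, 45.6% in all, beside 34.5% of all genes (13.7% higher and 20.7% lower). Against P14, 34 were lower in MB and 2 higher, 52.9% in all, beside 50.0% of all genes (22.9% higher and 27.2% lower). In MB against P7 the median differences were -1.09 for 16 scaffold and trafficking genes and -0.99 for 16 calcium signalling genes, beside 0.02 over all genes tested.

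Among co-agonist genes, Slc7a10, which carries D-serine and glycine across membranes, rose from E15.5 to P14 by 4.98 (edgeR FDR 2.26e-06) and was lower in MB than at P7 by -1.68 (FDR 0.00736). Slc6a9, the glycine transporter GlyT1, rose by 3.44 over the same span (FDR 2.70e-05). Srr, which makes D-serine, was lower in MB than at P7 by -1.35 (FDR 6.14e-05). GlyT1 is known from astroglia, whose summed markers were 290.5 to 309.6 CPM at E15.5 and 3502 to 4727 at P14, and their part in the result was not tested. Of 8 co-agonist genes, 5 were called between E15.5 and P14, 4 of them higher, beside 50.9% of all genes called and 26.7% called higher.

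Of the metabotropic partners, Grm4 rose from E15.5 to P14 by 5.10 (edgeR FDR 2.51e-04) and, in MB, Grm5 was lower than at P7 by -2.07 (FDR 1.37e-04). Among scaffolds, Dlg2 (PSD-93) was lower in MB by -4.42 (FDR 4.20e-07) and Shank1 by -3.20 (FDR 4.42e-04). Dlg4, the gene of PSD-95, differed with age (FDR 0.00675), from 257.5 to 270.1 CPM at E15.5 to 94.2 to 136.7 at P1, and was not called in MB (-0.28). Neto1, an auxiliary protein that was first described with NMDA receptors, fell from E15.5 to P14 by 1.71 (FDR 1.04e-04).

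In calcium signalling, Rasgrf1, an exchange factor that acts downstream of NMDA receptors, rose from E15.5 to P14 by 5.63 (edgeR FDR 3.17e-05). In MB, Camk2a, a kinase that binds GluN2B, was lower than at P7 by -5.78 (FDR 1.79e-06). Ptpn5 (STEP), a phosphatase that acts on GluN2B, fell from E15.5 to P14 by 2.72 (FDR 1.49e-07) and was lower in MB than at P7 by -3.88 (FDR 1.56e-08). Ptk2b (Pyk2), the kinase upstream of Src at the receptor, rose from E15.5 to P14 by 3.22 (FDR 1.25e-04) and was higher in MB than at P7 by 1.67 (FDR 0.0109). Ephb1, a receptor kinase that contacts NMDA receptors, was lower in MB by -3.11 (FDR 4.57e-06).

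Among transcription factors with described links to these genes, Nfix rose from E15.5 to P14 by 2.79 (edgeR FDR 6.41e-05). Tbr1, which regulates Grin2b in cortex, fell by 2.74 (FDR 5.64e-04) while Grin2b rose over the same ages. Rest, a repressor of neuronal genes, was lower in MB than at P7 by -0.94 (FDR 0.00291), and Mef2a by -0.71 (FDR 0.0441). Of the 12 tested factors, these 2 were the ones called in MB against P7, beside 34.5% of all genes.

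The genes most alike in profile were found by the root mean square difference of centred log2 CPM over the 15 libraries, among the 11571 other genes whose mean reached 5 CPM. Grin1 was closest to Jph4, Lrrtm3 and Mpp3 (0.39 to 0.40, where the median gene was at 1.35). Lrrtm3 is a synaptic adhesion protein, and its group means ran from 3.51 CPM in MB to 55.1 at P14. Grin2a was closest to Nhsl2, Fgd5 and Slit3 (0.49 to 0.59, median gene 1.90). Grin2b was closest to Zbtb7a, Klhl34 and Crtc3 (0.46 to 0.48, median gene 1.18), and Grin2d to Mrtfa, Lrrn2 and Rhobtb2 (0.20 to 0.22, median 0.68). Grin3a was closest to Dzip1l, Lnx1 and Adam17 (0.25 to 0.27, median 0.67), and Grin3b to Ttbk1, Zfp579 and Lrrc4b (0.21 to 0.22, median 0.79). For Grin2c the closest were Rit2, Kcnt1 and Rtn4rl1 at 1.17 to 1.32, where the median gene was at 2.32. The distance is not scaled for a member's own spread, so its values are not comparable between members. Kcnt1, a sodium-activated potassium channel gene, stood at 11.15 CPM in MB replicate 1 and at 1.588 and 1.881 in the other MB libraries.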

How the data were processed

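Poly(A) RNA-seq of 15 libraries (5 groups of 3) was used. The authors deposited raw read counts per gene, per transcript and per transcription start site model, not normalized. Per the submitters' processing notes, the tools were Trimmomatic, TopHat, StringTie and HTSeq, with build mm9, and versions are not given in the sources used here. Gene counts were the main table. Genes held 39.5% to 55.4% of records, and the summary lines that name no gene held the rest and were left out.

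Counts were fitted with edgeR 4.0.16 in R 4.3.3 (filterByExpr with minimum count 10, TMM, 1 mean per group, quasi-likelihood F-test, Benjamini-Hochberg over 15259 genes, call at FDR under 0.05). SE is the log2 change divided by the root of F. DESeq2 1.42.0 was an alternative, with others in the closing section. Ratios used exact permutation tests (two-sided, Python 3.11.15, scipy 1.17.1). The scripts were tested on simulated data. The replicate numbers were checked for pairing: correlations of same-numbered libraries ran from -0.31 to 0.33 and did not pair them. All members were named. From each pathway list at most 2 genes with the lowest FDR among ages and 2 in MB against P7 were named, and the 3 most alike genes per member. Some genes that this rule names are not reported here. Members and lists were chosen with earlier results of these data known.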

Additional observations from a re-analysis of the deposited data

How the results depend on the processing

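Under settings other than leaving out a library, 53 counts of members called stayed within 1.5 times the value reported and 15 did not. Of the fold changes and tests of single members, 413 kept their direction and their side of the threshold, 19 lost a call, 19 gained one and 9 changed sign. With the replicate block, 3 members were called among the 4 ages, with 8018 genes called in all. Grin2b in P14 against P7 was then 0.057, and no other count of members moved by over 1.5 times. Same-numbered libraries shared only a number. The start site table gave 1 member for P1 against E15.5, with 4834 genes called in all. Fits of the groups compared only gave 1 for P7 against P1, 3 for P14 against P7 and 3 for P14 against P1. Over all genes these fits called 203, 3838 and 4089. DESeq2 gave 2 for P14 against P7, with 2418 genes called in all. Adding the counting set to the model, which was chosen after seeing the data, left 0 members called for P14 against P1, 1 for P7 against P1 and 2 for P14 against E15.5, and MB against P7 then had 4. Over all genes, these 4 comparisons then called 1586, 197, 6244 and 4975. Grin2a was then -0.102 for P1 against E15.5 and 0.583 for P7 against P1, and Grin3b was -1.033 for P14 against P7 and -0.661 for P14 against E15.5. Libraries of 1 counting set, not possible for P7, leave 1 library at E15.5, so P14 against E15.5 rests there on that library. For P14 against P1 they gave 3 members (Grin2a, Grin2c and Grin3b), with 4714 genes called in all. DESeq2-type size factors, the transcript table and the start site table each gave 0 for P14 against P1, with 1337, 1346 and 955 genes called in all. Grin2c in P1 against E15.5 was -0.10 in the transcript table and -0.072 in the start site table. Grin3b was 0.065 in MB against P7 in the transcript table and 0.28 in MB against P14 within 1 counting set. The start site table held no model for Grin2d and Grin3b. The causes were not tested.

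Leaving out 1 library at a time, the number of members called ran from 2 to 5 among the 4 ages, 1 to 2 for P1 against E15.5, 0 to 1 for P7 against P1, 0 to 1 for P14 against P7, 2 to 5 for P14 against E15.5 and 0 to 1 for P14 against P1. Over all genes, calls in these fits ran from 7248 to 8518 among the 4 ages (8499 in the joint fit). They ran from 5666 to 6890 for P1 against E15.5 (7061) and from 9 to 888 for P7 against P1 (480). For P14 they ran from 125 to 1077 against P7 (1574), 6484 to 7598 against E15.5 (7766) and 154 to 2714 against P1 (1364). Fold changes that changed sign ran from -1.21 to 0.21 (Grin1) and -0.50 to 0.28 (Grin2c) for P1 against E15.5. For P14 against P7 they ran from -0.49 to 0.70 (Grin2b) and -0.18 to 0.38 (Grin3b). For Grin3b in P14 against E15.5 the range was -0.073 to 0.29. For P14 against P1 it was -0.19 to 0.072 (Grin2d) and -0.20 to 0.015 (Grin3a). In MB against P7 it was -2.66 to 2.14 (Grin2c) and -0.42 to 0.30 (Grin3b), and in MB against P14 -0.24 to 0.29 (Grin2d) and -0.47 to 0.26 (Grin3b). The Grin2c and Grin2d ratios to Grin2b in MB against P7 ran from -2.17 to 1.31 and -0.28 to 0.38, and the span of the Grin2d ratio over age from 2.42 to 3.51. With a single library left in a group's set, its spread was taken from the others. Depth limits Grin2a in MB, at 1 to 7 reads.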
